A study of Homo sapiens with 34 samples.

Results

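Fatty acid synthesis was followed through 10 genes: ACLY, ACACA and FASN, which make palmitate from citrate, the desaturases SCD, FADS1 and FADS2, the elongases ELOVL5 and ELOVL7, the acyl-CoA synthetase ACSL3, and SREBF1, which encodes an activating transcription factor of the pathway. The genes were chosen by symbol with earlier results of these data known, so their counts beside all genes are a description. The deposited count table of 26336 genes held all 10. All 10 passed the filter on low counts in each fit. Adding androgen to stripped serum on a calcium phosphate surface raised 9 of the 10 in LNCaP. There 7.73% of all genes were called, and 3.77% were called higher. In VCaP 7 of the 10 rose (17.5% called, 8.67% higher), while none passed the test in MDAPCa2a (0%). Several of the calls in LNCaP and in VCaP were lost when a single library was left out. In LNCaP the elongases ELOVL5 (log2 change 3.20 ± 0.21, estimate ± SE) and ELOVL7 rose most. In VCaP the largest rises were those of ACSL3 (2.82 ± 0.34) and FADS2.

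The libraries were made from poly(A) RNA of 4 human prostate lines, 34 in all, in 17 groups. RWPE is labelled non-tumorigenic epithelium, LNCaP a lymph node metastasis, and VCaP and MDAPCa2a bone metastases. The surface was either culture plastic or a coating of amorphous calcium phosphate (ACP), a mineral. The medium was the line's own control medium, one whose serum had been stripped of steroids with dextran-coated charcoal, or the stripped medium with added androgen. The androgen is labelled 100 mM and is called DHT in the titles and testosterone in the condition labels, so only the word androgen is used. LNCaP and VCaP had all 5 of these groups: plastic control, plastic stripped, ACP control, ACP stripped and ACP androgen. MDAPCa2a lacked ACP control, and RWPE had only plastic control, ACP control and ACP androgen. Each group held 2 libraries, except RWPE ACP androgen with 3 and VCaP plastic stripped with 1, which has no SD. Plastic control was labelled continuous culture and the other 13 groups day 4, although the protocol describes passage and 4 days of culture with a change of medium on day 2 for plastic cultures too. Each line had its own base medium, so line and medium cannot be told apart. MDAPCa2a was grown on a protein coating mix on plastic but not on ACP. The medium of RWPE was serum-free, while the androgen medium is described as holding stripped serum, so serum and androgen cannot be told apart in that line.

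De novo fatty acid synthesis starts in the cytosol, where ACLY splits citrate into acetyl-CoA and oxaloacetate, ACACA carboxylates acetyl-CoA to malonyl-CoA, and FASN joins these units into palmitate. SCD then inserts a double bond, elongases of the ELOVL family lengthen the chain, FADS1 and FADS2 desaturate polyunsaturated chains, and ACSL3 couples fatty acids to CoA for use in lipids. Luminal prostate cells respond to androgen, and prostate tumours are known for high FASN and lipid synthesis.

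Total counts ran from about 15440100 to about 44779200 per library. The 8 plastic control libraries were the deepest as a set (from about 34947100, while the other 26 held up to about 37015500) and also stood apart in content. FGG, a fibrinogen gene of liver, lay between 1.41 and 2.83 CPM (counts scaled to a common library size) in these 8 and at most at 0.0324 CPM elsewhere. Whatever set them apart and the group cannot be told apart in any comparison with plastic control. A luminal list summed to 801 to 15658 CPM, but in RWPE the sum came from KRT8 and KRT18, with KLK3 at a mean of at most 13.6 CPM, KLK2 at most 7.25 and TMPRSS2 at most 3.70. The summed basal keratin and TP63 list lay between 3407 and 16092 CPM in RWPE and at most at 44.1 CPM in the tumour lines. Of the 8 adipocyte markers, whose cells share this pathway, the sum lay between 2.66 and 31.6 CPM, and ADIPOQ was at most 0.207 CPM as a group mean. A lymphoid list summed to at most 0.818 CPM. Fibroblast and liver lists reached 160.2 and 332 CPM, both in VCaP ACP stripped, mostly from LUM (mean 94.0 CPM there) and ALB (292 CPM). In bulk RNA a change in the share of a cell type and a change in RNA per cell cannot be told apart. Nothing in the labels says that replicates were separate cultures, so p-values measure only the spread between these libraries.

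Promoter windows are shown for ELOVL5, ELOVL7 and ACSL3, which had the largest changes with androgen or stripping in LNCaP, and for SCD, which was called between surfaces. They are RefSeq windows of build GRCh38.p14, from 250 bases before to 50 after the gene start, written 5′ to 3′ on the gene's strand: ELOVL5 at chr6:53348901-53349200 (minus strand), ELOVL7 at chr5:60844220-60844519 (minus), ACSL3 at chr2:222860786-222861085 (plus) and SCD at chr10:100346983-100347282 (plus). Capitals mark matches, on either strand, to any of 5 motifs. These were the core of a sterol regulatory element, TCACNCCAC, the E-box, which reads CACGTG, the CCAAT box, the GC box, which reads GGGCGG, and an androgen response half-site, which reads AGAACA. Neighbouring matches can run together.
ELOVL5: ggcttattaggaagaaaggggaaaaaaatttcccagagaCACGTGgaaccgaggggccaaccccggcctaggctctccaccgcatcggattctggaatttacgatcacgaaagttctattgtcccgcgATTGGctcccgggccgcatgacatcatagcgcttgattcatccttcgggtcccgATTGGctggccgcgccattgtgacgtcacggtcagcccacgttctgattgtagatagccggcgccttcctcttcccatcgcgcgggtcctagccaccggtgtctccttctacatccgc
ELOVL7: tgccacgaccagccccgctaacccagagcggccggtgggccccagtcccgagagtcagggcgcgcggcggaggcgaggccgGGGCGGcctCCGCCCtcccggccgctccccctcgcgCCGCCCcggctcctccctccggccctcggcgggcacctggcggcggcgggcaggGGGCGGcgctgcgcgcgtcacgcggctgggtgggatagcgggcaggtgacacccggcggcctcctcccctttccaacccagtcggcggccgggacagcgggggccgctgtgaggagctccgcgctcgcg
ACSL3: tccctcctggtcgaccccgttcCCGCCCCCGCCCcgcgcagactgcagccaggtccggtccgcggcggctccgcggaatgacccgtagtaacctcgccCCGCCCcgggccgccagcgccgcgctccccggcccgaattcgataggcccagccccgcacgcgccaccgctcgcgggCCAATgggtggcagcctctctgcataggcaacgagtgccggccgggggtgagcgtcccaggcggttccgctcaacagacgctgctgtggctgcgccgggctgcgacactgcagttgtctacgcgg
SCD: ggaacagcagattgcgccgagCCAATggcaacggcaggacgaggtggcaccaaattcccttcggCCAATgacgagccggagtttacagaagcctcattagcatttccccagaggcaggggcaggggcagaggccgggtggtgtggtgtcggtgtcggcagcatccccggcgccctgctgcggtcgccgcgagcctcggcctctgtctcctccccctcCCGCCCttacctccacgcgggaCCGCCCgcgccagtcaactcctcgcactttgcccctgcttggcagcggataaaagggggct
ELOVL5 held an E-box and a pair of CCAAT boxes and no GC box. ELOVL7 held 4 GC boxes and no CCAAT box, and ACSL3 and SCD held both kinds. RefSeq windows were matched for 9 of the 10 members, every one but FASN, some with several starts. Among these 9 genes, 8 had a GC box in a window, 6 a CCAAT box, 1 (ELOVL5) an E-box, and none the sterol core or the androgen half-site. Counted by window, the unit of the shares that follow, 10 of their 13 windows held a GC box, 8 a CCAAT box and 1 an E-box. Over all 35116 windows of this length the shares were 45% for the GC box, 34.6% for CCAAT, 7.26% for the E-box, 14.8% for the half-site and 1.13% for the sterol core. A match is a description of letters, and no match says only that these letters are not in the window.

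Across the 17 groups the members differed widely in how far their levels moved. FADS2 had the widest range, from a mean of 13.2 CPM in MDAPCa2a ACP androgen to 1261 CPM in LNCaP ACP androgen, a 95.9-fold range. ELOVL7 spanned 47.5-fold, from 3.4 CPM in LNCaP plastic stripped to 162 CPM in VCaP ACP androgen. ELOVL5 and FASN each spanned about the same range, 31.5-fold and 31.2-fold. FADS1 had the narrowest range, 2.86-fold, followed by SCD with 3.79-fold. On a scale of CPM per kilobase of merged GENCODE exon, which allows genes to be set side by side, SCD was highest in all 3 RWPE groups, with a mean of 261 in plastic control. In LNCaP the top place was held by ELOVL5 with control medium on either surface and with androgen, at 405 per kilobase on plastic control and 1099.9 with androgen. FASN took it in LNCaP plastic stripped and in all 4 MDAPCa2a groups. It also led in every VCaP group but ACP androgen, at 362 per kilobase in VCaP plastic control. SCD was highest in LNCaP ACP stripped and in VCaP ACP androgen.

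**Figure D1:**
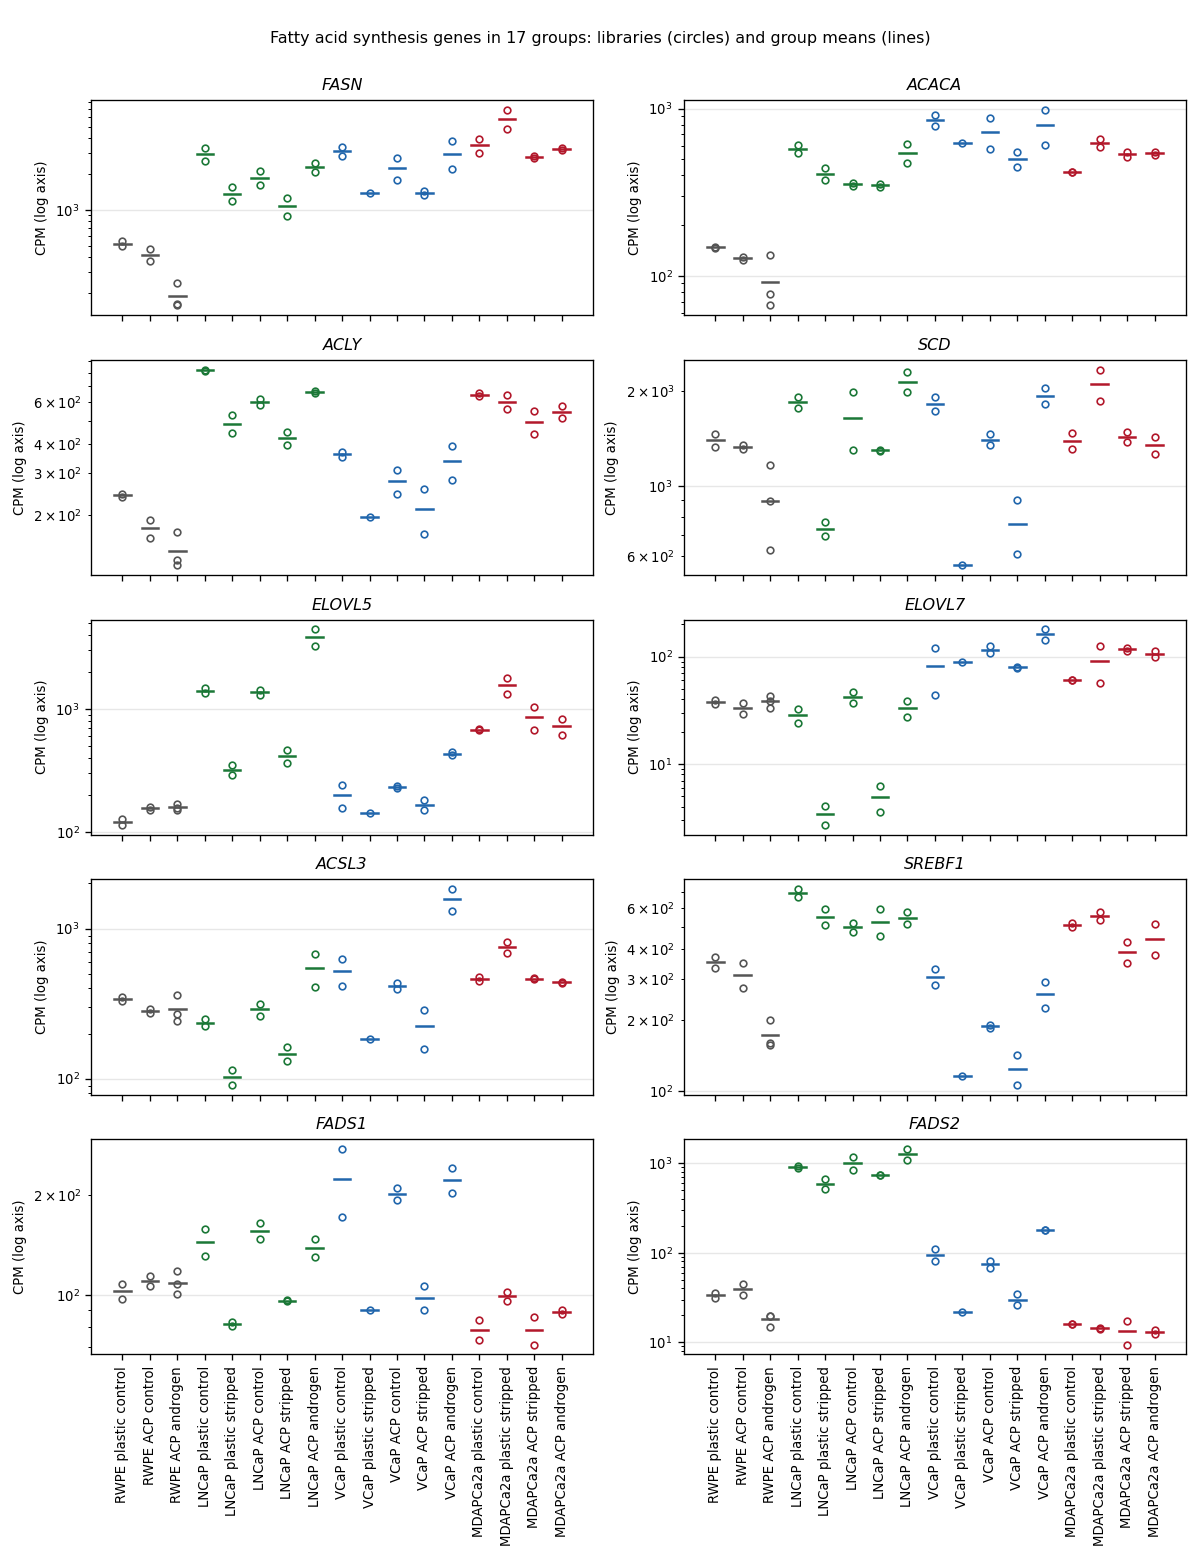
Level of each of the 10 genes in CPM (log axis) in the 17 groups, with a circle for each library and a line for the group mean; grey is RWPE, green LNCaP, blue VCaP and red MDAPCa2a. ELOVL5 and ELOVL7 drop in stripped LNCaP and return with androgen, ACSL3 peaks in VCaP with androgen, and FADS2 separates LNCaP from the other lines.

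Between lines on plastic in control medium, the palmitate-making genes were higher in all 3 tumour lines than in RWPE. FASN read 492 and 548 CPM in the RWPE libraries, against 2585 and 3321 in LNCaP, 2841 and 3359.8 in VCaP and 3031 and 3968 in MDAPCa2a. Every tumour library lay above both RWPE libraries, and the tumour lines overlapped each other. The log2 differences from RWPE were 2.52 ± 0.29 in LNCaP, 2.59 ± 0.29 in VCaP and 2.76 ± 0.29 in MDAPCa2a (edgeR quasi-likelihood test with Benjamini-Hochberg adjustment over all genes, adjusted p = 6.5e-08, 3.6e-08 and 1.7e-08). ACACA, the rate-limiting carboxylase, was also higher in each, by a log2 difference of 1.98, 2.54 and 1.51 in the same order, and so was ACLY, by 1.78, 0.60 and 1.43. SCD, the oleate-making desaturase, did not pass the test against RWPE in any of the 3 (log2 difference 0.42, 0.40 and 0.00). In all, 7 of 10 members differed in LNCaP, all higher, where 57.4% of all genes tested did. In VCaP 8 differed, all higher (62.4% of all genes), and in MDAPCa2a 5 were higher and 1, FADS2, was lower (56.7%). These shares of genes called were large, but they count both directions. Genes called higher than RWPE numbered 5113 of 17323 for LNCaP, 5566 for VCaP and 4904 for MDAPCa2a. For each line the share of members called higher was thus above the matching share of all genes. The members were chosen with earlier results of these data known, so this is a description. Without VCaP plastic control replicate 2, 4 of the 8 VCaP calls were left (ACACA, FADS1, FADS2 and FASN), and without RWPE plastic control replicate 1, 5.

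FADS2, the delta-6 desaturase, had the largest differences of the 10 between tumour lines. It read 878 and 923 CPM in LNCaP plastic control, 80 and 110.2 in VCaP, 15.8 and 16 in MDAPCa2a and 30.9 and 35.8 in RWPE. The libraries of each line kept clear of those of every other line. FADS2 was lower in MDAPCa2a than in LNCaP (log2 difference -5.83 ± 0.29, adjusted p = 4.6e-14). Its neighbour FADS1, the delta-5 desaturase, ranged less: 131 and 159 CPM in LNCaP, 172 and 276 in VCaP and 83.9 and 73.2 in MDAPCa2a. Some transcripts of FADS1 and FADS2 overlap on opposite strands in GENCODE and the strand setting of the counting is not given, so reads from the shared stretch cannot be told apart. ELOVL5, which lengthens polyunsaturated chains, was also highest in LNCaP, with 1479 and 1347 CPM against 158 and 243 in VCaP (VCaP minus LNCaP -2.82 ± 0.24, adjusted p = 7.2e-10). ELOVL7, an elongase of long saturated chains, went the other way: 32.8 and 24.3 CPM in LNCaP and 43.6 and 121 in VCaP. VCaP and LNCaP differed in 7 members, 3 higher and 4 lower in VCaP, with 52.6% of all genes called. MDAPCa2a and LNCaP differed in 5 (40.2%; 3 without LNCaP plastic control replicate 2), and VCaP and MDAPCa2a in 6 (52.4%). FASN was within the spread in all 3 of these pairs, with log2 differences of 0.07, 0.24 and -0.17.

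**Figure D2:**
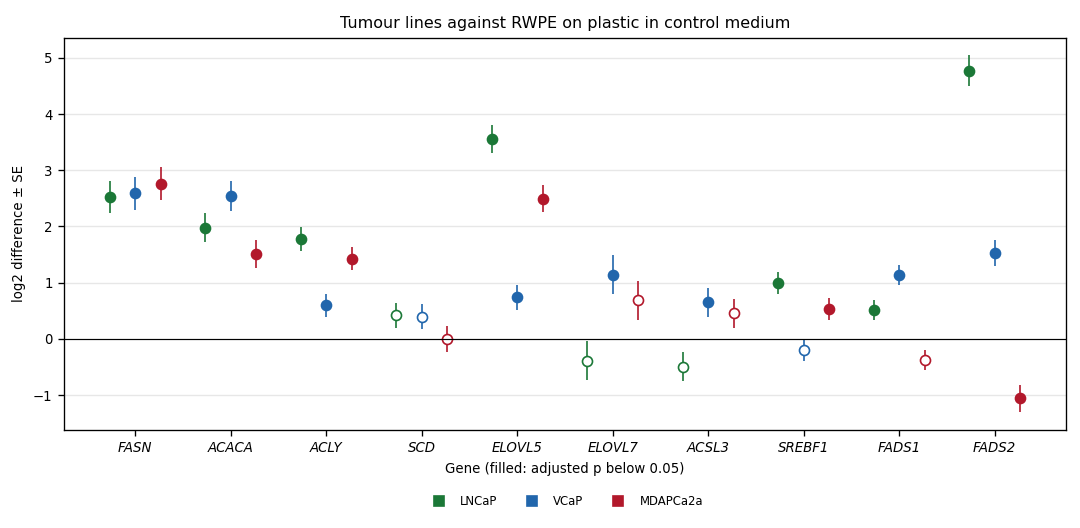
Log2 difference of each tumour line from RWPE on plastic in control medium for the 10 genes, with SE from the fit of all 34 libraries; filled points passed the adjusted p threshold. FASN, ACACA and ACLY are higher in all 3 lines, and FADS2 ranges from 4.77 in LNCaP to -1.06 in MDAPCa2a.

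The tumour lines were compared again on ACP with androgen. VCaP and LNCaP differed in 7 members (56% of all genes), MDAPCa2a and LNCaP in 5 (45.3%; 3 without LNCaP ACP androgen replicate 2), and VCaP and MDAPCa2a in 6 (51.4%). FADS2 gave -6.58 ± 0.30 for MDAPCa2a minus LNCaP, with 13.9 and 12.5 against 1083 and 1439.8 CPM. ACSL3, which was lower in LNCaP than in MDAPCa2a on plastic (MDAPCa2a minus LNCaP 0.95 ± 0.26, adjusted p = 0.0049), read 677 and 410.5 CPM in LNCaP and 444 and 437 in MDAPCa2a here, libraries that overlapped (-0.30 ± 0.26, adjusted p = 0.36).

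Androgen in LNCaP raised both elongases most. ELOVL5 read 364 and 467 CPM in the ACP stripped libraries and 4437 and 3229 CPM in the ACP androgen libraries. Both androgen libraries lay far above both stripped ones, a 9.19-fold rise (log2 3.20 ± 0.21, adjusted p = 3.2e-05). ELOVL7 rose from 3.59 and 6.18 to 27.6 and 38.7 CPM (2.75 ± 0.32, adjusted p = 7.1e-04), again with no overlap. ACSL3, which works at the endoplasmic reticulum and on lipid droplets, rose from 131 and 163 to 677 and 410.5 CPM (1.88 ± 0.25, adjusted p = 0.0014). These 3 calls held without each of the 4 libraries in turn, with log2 changes of 2.94 to 3.42, 2.41 to 3.21 and 1.46 to 2.21.

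The palmitate-making genes and the desaturases rose in LNCaP too. FASN went from 1263 and 879 CPM in ACP stripped to 2484 and 2064 CPM in ACP androgen, with no overlap, a 2.12-fold rise (1.08 ± 0.21, adjusted p = 0.013). ACLY rose from 450.0 and 396 to 666 and 656 CPM (0.64 ± 0.13, adjusted p = 0.014) and ACACA from 355 and 338 to 615 and 472 CPM (0.64 ± 0.15, adjusted p = 0.029). Among the desaturases, SCD rose from 1303 and 1294 to 1976 and 2288 CPM (0.71 ± 0.18, adjusted p = 0.039). FADS2 rose from 735 and 731 to 1083 and 1439.8 CPM (0.78 ± 0.18, adjusted p = 0.025) and FADS1 from 95.8 and 96.8 to 130.0 and 148 CPM (0.52 ± 0.14, adjusted p = 0.047). In each of these the androgen libraries lay above the stripped ones. SREBF1 was the exception: its libraries read 596 and 454 CPM stripped and 576 and 512 CPM with androgen and overlapped, with a log2 change of 0.05 ± 0.15 (adjusted p = 0.88).

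So 9 of the 10 members rose in LNCaP, where 7.73% of all 14656 genes were called and 3.77% were called higher. Their median log2 change was 0.74, against -0.01 over all genes tested. The members were chosen with earlier results of these data known, so these shares do not test the pathway. Each of the 6 smaller rises lost its call without at least 1 library. Without LNCaP ACP stripped replicate 2 the calls fell to 3 (ELOVL5, ELOVL7 and ACSL3), and they numbered 4 without stripped replicate 1, 4 without androgen replicate 1 and 6 without androgen replicate 2. The adjusted p then reached 0.12 for FASN, 0.21 for ACACA, 0.13 for ACLY, 0.18 for SCD, 0.22 for FADS1 and 0.14 for FADS2. A fit of all 34 libraries called 4 of the 10.

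In VCaP the acyl-CoA synthetase ACSL3 and the desaturase FADS2 rose most. ACSL3 read 157 and 289 CPM in ACP stripped and 1832 and 1303 CPM in ACP androgen, a 7.04-fold rise (log2 2.82 ± 0.34, adjusted p = 0.0014). The androgen libraries were the highest of this gene in the series, and the next highest library, in MDAPCa2a plastic stripped, read 813 CPM. FADS2 rose from 25.8 and 34.3 to 178 and 179 CPM (2.57 ± 0.23, adjusted p = 4.6e-04), with the androgen libraries close together and above both stripped ones. ELOVL5 rose from 153 and 183 to 424 and 447 CPM (1.38 ± 0.23, adjusted p = 0.0052), still below every LNCaP control library. SCD rose from 610.5 and 902 to 2037 and 1811 CPM (1.35 ± 0.24, adjusted p = 0.0064), with no overlap. These 4 calls held without each library in turn.

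SREBF1, whose protein activates lipogenic genes after it is cleaved, rose in VCaP from 106 and 142 to 290.1 and 225 CPM (1.05 ± 0.22, adjusted p = 0.012). FADS1 rose from 89.9 and 107 to 203 and 242 CPM (1.18 ± 0.24, adjusted p = 0.011) and FASN from 1339 and 1439 to 3764 and 2185 CPM (1.10 ± 0.30, adjusted p = 0.033). None of these 3 overlapped between the groups, but the androgen replicates of FASN lay far apart. ACACA (446 and 548 against 983 and 608 CPM, log2 change 0.68 ± 0.28), ACLY (0.67 ± 0.25) and ELOVL7 (78.2 and 80.5 against 144 and 179 CPM, 1.03 ± 0.37) did not pass the test, with adjusted p of 0.12, 0.091 and 0.084. In all 7 of 10 members rose, where 17.5% of 15614 genes were called and 8.67% were called higher. The members' median log2 change was 1.14, against -0.03 over all genes. Summed markers of other cell types were lower with androgen in the same comparison: 5 fibroblast genes at 39.9 to 160.2 CPM stripped and 7.28 to 8.36 CPM with androgen, 8 liver genes at 277 to 332 and 38.0 to 100.4 CPM, and 8 adipocyte genes at 11.4 to 16.2 and 2.66 to 3.25 CPM. In the stripped libraries each sum came mostly from 1 gene, whose mean was lower with androgen: LUM (mean 94.0 to 2.67 CPM), ALB (292 to 39.8) and PPARG (9.80 to 0.75). The lists did not fall as a whole, as the means of COL1A1 (4.72 to 4.76 CPM) and APOH (7.81 to 16.5) were not lower. Of these lists, LUM, DCN, ALB and PPARG fell and SERPINA1 rose, genes named after their values were seen. Their part in the members' values was not tested. Without VCaP ACP stripped replicate 1 the calls fell to 4 (ACSL3, ELOVL5, FADS2 and SCD), with adjusted p of up to 0.069 for SREBF1, also lost without androgen replicate 1, and 0.071 for FADS1, also lost without androgen replicate 2. FASN lost its call without stripped replicate 1, stripped replicate 2 or androgen replicate 1 (adjusted p up to 0.18).

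MDAPCa2a gave no call for any member. FASN read 2849 and 2735 CPM in ACP stripped and 3176 and 3295 CPM in ACP androgen (log2 change 0.18 ± 0.23), levels above those of LNCaP stripped libraries in both groups. ELOVL5 read 1042 and 670.2 CPM, then 834 and 612 with androgen (-0.29 ± 0.28), and ACSL3 458 and 470.5 CPM, then 444 and 437 (-0.11 ± 0.17). The log2 changes of the 10 members ran from -0.29 to 0.18, with SEs from 0.15 to 0.31. The edgeR test called 0 of 10 and 0% of all 13626 genes. No member had an unadjusted p below 0.05 (236 of all genes did), and DESeq2 called 0 members and 3 genes in all.

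**Figure D3:**
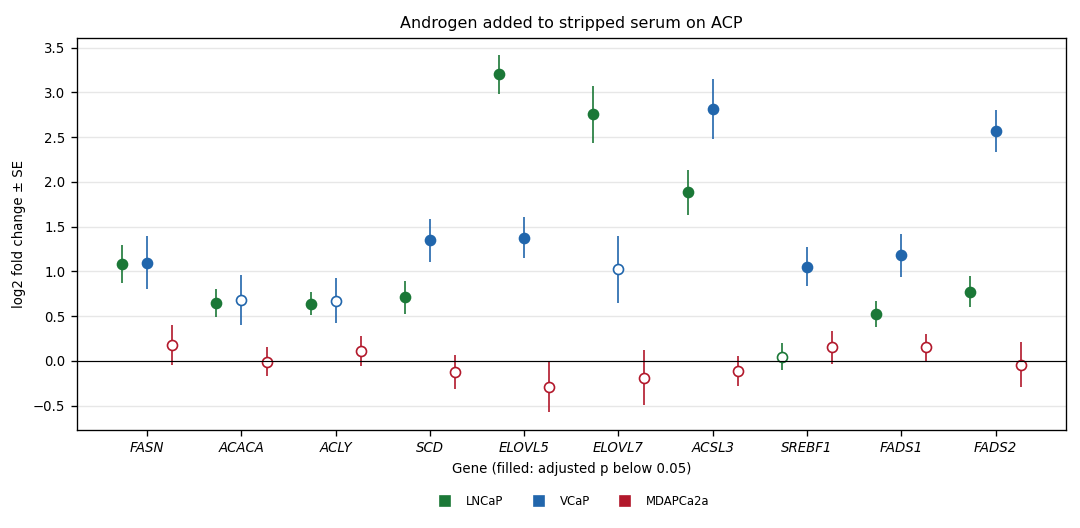
Log2 fold change with SE of the 10 genes for ACP androgen against ACP stripped, from the fit of each line; filled points passed the adjusted p threshold. LNCaP (green) leads at ELOVL5 and ELOVL7, VCaP (blue) at ACSL3 and FADS2, and the MDAPCa2a points (red) lie between -0.29 and 0.18.

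Genes known to be induced by androgen were followed beside the members. All 4 of KLK3, KLK2, TMPRSS2 and FKBP5 rose in LNCaP, with TMPRSS2 rising most (2.27), and all 4 rose in VCaP, with KLK3 rising most (4.77). In MDAPCa2a none of the 4 passed the test, and the ACP stripped libraries already held a mean of 9335 CPM of KLK3, the prostate-specific antigen gene. LNCaP stripped libraries on ACP held 1672 CPM and VCaP ones 77.6 CPM.

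The difference between the lines' androgen effects was tested directly in the fit of all 34 libraries. The ELOVL5 effect was smaller in VCaP than in LNCaP (VCaP minus LNCaP -1.84 ± 0.32 on the log2 scale, adjusted p = 9.5e-04) and the FADS2 effect was larger by 1.78 ± 0.33 (adjusted p = 0.0015). ELOVL7 (-1.75 ± 0.50) and SREBF1 (0.99 ± 0.28) made 4 of 10 members, where 10.9% of 17323 genes were called. ELOVL7 and SREBF1 lost their calls without VCaP ACP androgen replicate 1, VCaP ACP stripped replicate 1, LNCaP ACP androgen replicate 2 or LNCaP ACP stripped replicate 1, and ELOVL7 also without VCaP androgen replicate 2 (adjusted p up to 0.15 and 0.13). Against MDAPCa2a, the LNCaP effect was larger for 3 of 10 members (1.12% of all genes): ELOVL5 (3.45 ± 0.33), ELOVL7 (2.92 ± 0.51) and ACSL3 (1.96 ± 0.37, adjusted p up to 0.064 without LNCaP ACP androgen or stripped replicate 1). The VCaP effect was larger than the MDAPCa2a effect for 5 of 10 (7.86%): ACSL3 (2.89 ± 0.37), FADS2 (2.58 ± 0.35), ELOVL5 (1.61 ± 0.32), SCD (1.43 ± 0.33) and FADS1 (0.99 ± 0.25). Without VCaP ACP stripped replicate 1, 3 of these 5 were left, with SCD and FADS1 lost (adjusted p = 0.055 at the highest for SCD). FADS1 was also lost without VCaP ACP androgen replicate 2 and without MDAPCa2a ACP androgen or stripped replicate 2 (adjusted p up to 0.076). FASN, ACACA and ACLY did not pass the test in any of these 3 differences, and for VCaP minus LNCaP their values were 0.00, 0.02 and 0.02 with SEs of 0.39, 0.35 and 0.28.

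Stripping of serum in LNCaP lowered both elongases most. On plastic, ELOVL5 read 1479 and 1347 CPM in control medium and 291 and 350.0 CPM in stripped serum (-2.08 ± 0.20, adjusted p = 2.5e-04), and ELOVL7 went from 32.8 and 24.3 to 2.7 and 4.1 CPM (-3.04 ± 0.33, adjusted p = 4.3e-04). SCD went from 1766 and 1915 to 695 and 772 CPM (-1.27 ± 0.19, adjusted p = 0.002). In these 3, no stripped library reached a control library, and each call held without any 1 library. FASN fell from 2585 and 3321 to 1541 and 1176 CPM (-1.07 ± 0.21, adjusted p = 0.01) and ACSL3 from 248 and 225 to 91 and 114 CPM (-1.14 ± 0.24, adjusted p = 0.015). FADS1 (-0.77 ± 0.14) and ACLY (-0.70 ± 0.13) fell too, which made 7 of 10 members lower, where 9.45% of all genes were called and 4.84% were called lower. Without LNCaP plastic control replicate 2 the calls fell to 3 (ELOVL5, ELOVL7 and SCD) and without plastic stripped replicate 1 to 4 (these and ACLY). FASN was also lost without plastic stripped replicate 2, and ACLY and ACSL3 without plastic control replicate 1, with adjusted p of up to 0.097 for FASN, 0.14 for ACSL3, 0.12 for FADS1 and 0.078 for ACLY. The plastic control libraries also hold the FGG reads described above, whose part in these values was not tested. The ACP groups of LNCaP held 1 such read in all.

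On ACP, 6 of 10 members fell in LNCaP (5.37% of all genes called, 2.09% called lower). ELOVL5 went from 1308 and 1423 to 364 and 467 CPM (-1.73 ± 0.20, adjusted p = 8.6e-04) and ELOVL7 from 36.6 and 46.8 to 3.59 and 6.18 CPM (-3.11 ± 0.32, adjusted p = 5.7e-04), both with no overlap and with calls that held without each library. FADS1 (-0.72 ± 0.14), ACSL3 (-1.0 ± 0.24), FASN (-0.82 ± 0.21) and ACLY (-0.52 ± 0.13) fell with adjusted p of 0.015, 0.039, 0.046 and 0.038. Leaving out either ACP stripped replicate left only ELOVL5 and ELOVL7 called, and leaving out ACP control replicate 1 or 2 left 4 (ACLY was lost in both, ACSL3 without replicate 1 and FASN without replicate 2, with adjusted p up to 0.13 for FADS1, 0.29 for ACSL3, 0.25 for FASN and 0.22 for ACLY over these fits). SCD read 1303 and 1984 CPM in control medium and 1303 and 1294 CPM in stripped serum (-0.35 ± 0.18, adjusted p = 0.28). The ACP stripped libraries are also the baseline of the androgen comparison, so the stripping and androgen values on ACP share them. Side by side, ELOVL5 had -1.73 and 3.20, ELOVL7 -3.11 and 2.75, ACSL3 -1.0 and 1.88, and SREBF1 0.06 and 0.05.

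In VCaP, FADS2 was the member called on both surfaces, on plastic against only 1 stripped library. There FADS2 fell from 80 and 110.2 to 22 CPM (-2.05 ± 0.30, adjusted p = 0.042) and SCD from 1725 and 1908 to 562 CPM (-1.62 ± 0.31, adjusted p = 0.048), 2 of 10 members with 0.89% of all genes called. The single library is assumed in this fit to vary like the other groups of the line, so its own replicate spread is unknown. SCD was lost without either plastic control replicate (adjusted p up to 0.058). The count depended on the setting: 0 members with a replicate block, 1 (FADS2) with RLE size factors, 6 with DESeq2 and 7 in the fit of all lines. SREBF1, at 329.9 and 281 CPM in control and 116 CPM in stripped medium, had a log2 change of -1.33 ± 0.28 (adjusted p = 0.057). On ACP, FADS2 alone passed (0.82% of all genes called), from 80.5 and 67.9 to 25.8 and 34.3 CPM (-1.29 ± 0.23, adjusted p = 0.04), with no overlap. This call was lost without ACP stripped replicate 1 or either ACP control replicate (adjusted p up to 0.23). All 10 members had negative values on ACP, with a median log2 change of -0.63 against 0.08 over all genes.

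In MDAPCa2a on plastic no member passed the test. FASN read 3031 and 3968 CPM in control medium and 6939.8 and 4783 CPM in stripped serum, the highest libraries of this gene in the series (0.78 ± 0.23, adjusted p = 0.13). ELOVL5 read 672 and 694 CPM, then 1329 and 1781 when stripped (1.23 ± 0.28, adjusted p = 0.071). ACSL3 read 474 and 449 CPM, then 687 and 813 (0.74 ± 0.17, adjusted p = 0.068). In none of the 3 did libraries overlap between media, but the share of all genes without overlap was not counted. Of the 10 members 8 had positive values. The edgeR test called 0 of 10, with 1.58% of all genes called. At an unadjusted p below 0.05 there were 6 members and 2208 genes, and DESeq2 called 5 members and 590 genes. FKBP5 rose in the same comparison (2.10 ± 0.21, adjusted p = 0.0072).

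**Figure D4:**
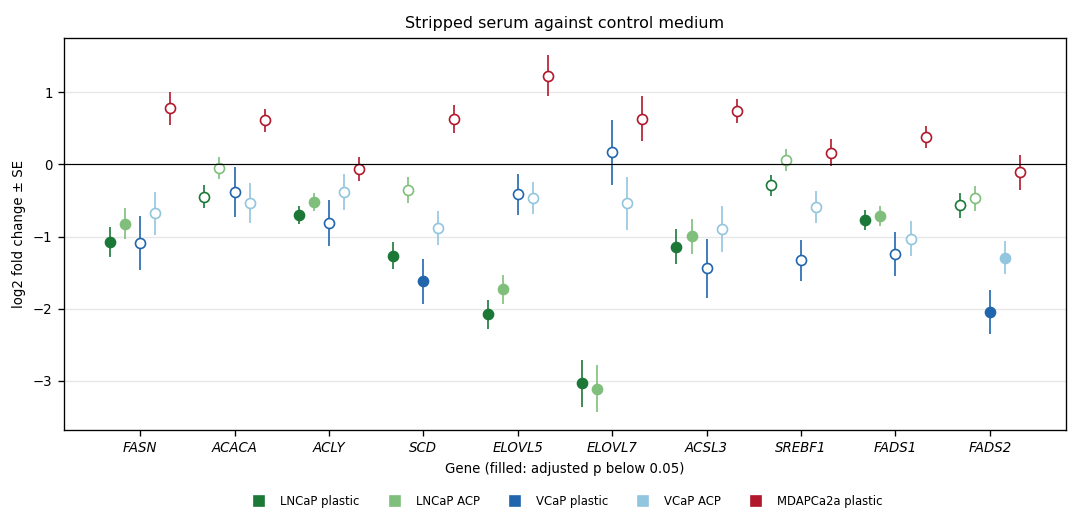
Log2 fold change with SE of the 10 genes in stripped serum against control medium, by line and surface, from the fit of each line; filled points passed the adjusted p threshold. The LNCaP values (greens) of ELOVL7 lie lowest, near -3, the VCaP values (blues) are negative apart from ELOVL7 on plastic, and 8 of the 10 MDAPCa2a values (red) are above 0.

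Between surfaces, 1 member was called in LNCaP in each medium and none in the other lines. In stripped serum, SCD was the only 1 of 10 called in LNCaP (6.12% of all genes called): 695 and 772 CPM on plastic and 1303 and 1294 CPM on ACP, with no overlap (0.85 ± 0.18, adjusted p = 0.025). This call was lost without either ACP stripped replicate or plastic stripped replicate 1 (adjusted p up to 0.21), and in the fit of all lines. In VCaP, again with 1 plastic stripped library, 0 of 10 were called in stripped serum, with 0% of all genes called, no member and 511 genes at an unadjusted p below 0.05, and 0 members and 4 genes by DESeq2. In MDAPCa2a 0 of 10 were called by edgeR (0.00734% of all genes). At an unadjusted p below 0.05 stood 4 members and 2071 genes there, and DESeq2 gave 2 members and 206 genes. FASN had the lowest value of the 10, 6939.8 and 4783 CPM on plastic and 2849 and 2735 CPM on ACP (-0.97 ± 0.23, adjusted p = 0.19).

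In control medium, ACACA was 1 of 10 called in LNCaP (12.6% of all genes), lower on ACP: 545 and 605 CPM on plastic and 359.9 and 345 CPM on ACP (-0.61 ± 0.15, adjusted p = 0.029). The libraries did not overlap, but the call was lost without any 1 of the 4 (adjusted p from 0.067 to 0.21). In RWPE 0 of 10 members were called by edgeR (4.16% of all genes), with 1 member and 3269 genes at an unadjusted p below 0.05 and 0 members and 1324 genes by DESeq2. In VCaP 0 of 10 were called (0.0448% of all genes), with 1 member and 1123 genes at an unadjusted p below 0.05 and 0 members and 41 genes by DESeq2. A test of whether stripping acted differently on the surfaces in LNCaP called 0 of 10 (0.307% of all genes). SCD had the largest value there (0.91 ± 0.26, adjusted p = 0.25). At an unadjusted p below 0.05 there were 1 member and 1276 genes, and DESeq2 called 0 members and 201 genes. The 44 genes called higher among the 45 included KLK3 (3.70), whose fall with stripping was smaller on ACP.

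In RWPE, the medium with androgen lowered FASN, SREBF1 and FADS2. FASN read 464 and 374 CPM in ACP control and 157, 162 and 244 CPM in ACP androgen, 2.2-fold lower (-1.14 ± 0.21, adjusted p = 0.017). SREBF1 went from 350.1 and 275 to 157, 160.3 and 201 CPM (-0.84 ± 0.18, adjusted p = 0.019) and FADS2 from 44.4 and 33.5 to 14.9, 19.9 and 19.6 CPM (-1.08 ± 0.18, adjusted p = 0.017). No androgen library of these 3 genes reached a control library. ELOVL5, which rose most with androgen in LNCaP, read 152 and 160.1 CPM in control, then 151, 157 and 169.6 (log2 change 0.05 ± 0.16). ACSL3, which rose most in VCaP, read 276 and 293 CPM, then 244, 272 and 361 (0.06 ± 0.19). The 3 lower members of 10 stand beside 19.1% of all genes called in either direction, with 1151 of 14293 called lower. None of the 3 was called when ACP control replicate 1 or 2 was left out (adjusted p up to 0.27), while 6 members were called without androgen replicate 3. With the replicate number as a block 6 were called as well, ACACA, ACLY and SCD being added. Basal markers were lower in the same comparison, with KRT5 at a log2 change of -1.16 ± 0.36, adjusted p = 0.046, and the summed basal list ran from 12852 to 16092 CPM in control and from 3407 to 11248 CPM with androgen. The part of this shift in the members' values was not tested. None of the 4 androgen-induced genes passed the test in RWPE.

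Other genes of the pathway were read from lists. Of 33 further fatty acid synthesis genes, 29 were tested in LNCaP, where androgen raised 3 and lowered 1 (7.73% of all genes were called). HACD2, a dehydratase of the elongation cycle, rose most (1.00 ± 0.16, adjusted p = 0.0041), from 21.5 to 43.3 CPM, and SCD5, a second desaturase of stearate, fell most (-1.82, from 10.7 to 3.04 CPM). The list's median was 0.02, against 0.74 for the 10 members and -0.01 over all genes. In VCaP 5 of 30 rose and 3 fell (17.5% of all genes called), with a median of 0.17. OLAH, a thioesterase, had the largest rise from near absence (0.0611 to 8.4 CPM), and CBR4, a mitochondrial reductase, the largest fall (-1.47 ± 0.31, adjusted p = 0.012). Stripping on plastic lowered 7 of 29 and raised none in LNCaP (4.84% of all genes called lower), and on ACP (2.09%) it lowered 1, HACD2 (-0.78 ± 0.16, adjusted p = 0.016).

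Of 16 regulators of the SREBP pathway, androgen raised 4 and lowered 1 in LNCaP (7.73% of all genes called, 3.77% higher). LPIN1, a phosphatidate phosphatase that also acts on SREBP, rose most (1.18 ± 0.14, adjusted p = 7.5e-04), and INSIG2, which holds SREBP in the endoplasmic reticulum, fell (-0.97 ± 0.22, adjusted p = 0.026). The other rises, named after their values were seen, were SREBF2 (0.78), SCAP (0.59) and INSIG1 (1.05). In VCaP INSIG1, itself a target of SREBP, rose most of 2 (1.86 ± 0.26, adjusted p = 0.0028, from 191 to 692 CPM), and none fell, a smaller share than the 17.5% of all genes called. In LNCaP, stripping on plastic (9.45% of all genes called) lowered 3, led by SREBF2 (-1.26 ± 0.15, adjusted p = 5.7e-04), and raised INSIG2 (1.32).

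Cholesterol synthesis shares its SREBP activators with this pathway. Androgen raised 11 of 18 genes and lowered none in LNCaP (median log2 change 0.69, 3.77% of all genes called higher), with HMGCS1 rising most (1.38 ± 0.23, adjusted p = 0.0053), and raised 8 of 18 and lowered none in VCaP (median 0.69, 8.67% called higher). In MDAPCa2a none of the 18 passed the test (median -0.09). Glycerolipid synthesis gave no call among 16 genes in LNCaP, and in VCaP 1 rise and 2 falls, a share near the 17.5% of all genes called. The rise was PLIN2 (1.10 ± 0.24, adjusted p = 0.013), which coats lipid droplets, and the larger fall DGAT2 (-1.17 ± 0.27, adjusted p = 0.018), which makes triglyceride. Of 25 fatty acid oxidation genes, androgen raised 3 and lowered 1 in LNCaP (7.73% of all genes called), and raised 4 and lowered 1 in VCaP, there a share near the 17.5% of all genes called. AMACR, a racemase of branched-chain fatty acids and a known marker of prostate cancer, rose most in VCaP, from 21.2 to 692 CPM (5.03 ± 0.34, adjusted p = 2.8e-04). In LNCaP ACADL rose most from a low level (0.0689 to 2.81 CPM) and CPT1C was the fall (-1.75).

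The members' levels followed each other across the day 4 groups. Over these 13 groups, with each line centred on its own mean, Pearson correlations of log2 CPM between members ran from 0.08 (ELOVL7 and SREBF1) to 0.92 (FASN and ACLY), with a median of 0.74 over 45 pairs, and all 45 were positive. The groups of a line share that line, so this is a description. Measured against FASN, ACLY ranked 18 of 11388 genes by this likeness, SREBF1 159 (r = 0.82), ACACA 160 (r = 0.82), SCD 208 (r = 0.80) and FADS2 308 (r = 0.78). FADS1 (r = 0.72), ACSL3 (r = 0.74) and ELOVL5 (r = 0.71) came further down, and ELOVL7 was least like FASN (r = 0.47, rank 2168). The 5 genes most like FASN were TSKU (r = 0.96), RDH14 (0.96), ADRBK1 (0.95), MICALL1 (0.95) and SLC2A1 (0.94), the last a glucose transporter. Without centring and over all 17 groups, FASN and FADS2 had r = 0.08 and FASN and ACACA r = 0.90. The 5 genes most like FASN did not keep that place. TSKU then had r = 0.44, RDH14 0.53 and ADRBK1 0.62, while MICALL1 (-0.29) and SLC2A1 (-0.47) turned negative.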

How the data were processed

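The authors deposited whole-number read counts per gene symbol, 1 column per library and not normalized. STAR, HTSeq and the build hg19 come from the submitters' processing notes, without versions; for annotation and strand setting the sources used here give nothing. Columns were matched to samples by name, with 0 left over. Genes were tested with edgeR 4.0.16 in R 4.3.3 (quasi-likelihood test after TMM normalization, low genes removed by filterByExpr at a minimum count of 10), with a Benjamini-Hochberg adjusted p below 0.05 over all genes as the threshold. Comparisons within a line used that line's groups, and comparisons between lines all 34 libraries. CPM used TMM sizes over all libraries, which scale for depth but not for total RNA per cell. Overlap of libraries between groups is a description, and its share over all genes was not counted. Log2 CPM for correlations took a prior count of 1, and likeness to FASN was ranked over genes with a mean of at least 5 CPM. Replicate libraries differed by a chi-square of at least 10.2 per gene, so none was a copy. Named were all members, the largest rise and fall of each list past the threshold, the 5 genes most like FASN and 4 androgen-induced genes. One further gene under this rule is not reported here. Members and lists were chosen with earlier results of these data known. Alternatives were RLE size factors, no count filter, DESeq2 1.42.0, a replicate block, fits of all lines or of day 4 groups, and leaving out each library. The steps were tested on simulated data.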

Additional observations from a re-analysis of the deposited data

Results flagged for a closer look

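The effect of androgen on ACP differed between lines for several members. Of 10 members in each of 3 differences, 12 tests of the difference itself passed: 4 for VCaP minus LNCaP, 3 for LNCaP minus MDAPCa2a and 5 for VCaP minus MDAPCa2a, with 10.9%, 1.12% and 7.86% of all genes called (edgeR quasi-likelihood test of an interaction, Benjamini-Hochberg adjustment over all genes). For VCaP minus LNCaP, ELOVL5 gave a log2 difference of -1.84 (adjusted p = 9.5e-04), ELOVL7 -1.75 (0.025), SREBF1 0.99 (0.021) and FADS2 1.78 (0.0015). For LNCaP minus MDAPCa2a, ELOVL5 gave 3.45 (1.3e-06), ELOVL7 2.92 (0.0025) and ACSL3 1.96 (0.0053). For VCaP minus MDAPCa2a, SCD gave 1.43 (0.008), ELOVL5 1.61 (0.0031), ACSL3 2.89 (5.9e-05), FADS1 0.99 (0.016) and FADS2 2.58 (7.5e-05). Some calls were lost when a single library was left out: ELOVL7 and SREBF1 for VCaP minus LNCaP, and ACSL3 for LNCaP minus MDAPCa2a. For VCaP minus MDAPCa2a, SCD and FADS1 were lost in this way. The KLK3 level before androgen differed widely between these lines, and its part in the differences was not tested.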

How the results depend on the processing

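No member value reversed its direction relative to a call. Of 1250 member values in refits without 1 library, 1122 kept their side of the threshold, 114 lost a call and 14 gained one. Of 1370 in other settings, 1277 kept it, 24 lost and 69 gained. These totals include members not called in the main fit, which had no call to lose, so the share of calls lost is larger. Counts of members called that moved are given here, and the cause was not tested. Without a count filter they were 3 for the LNCaP surface in control medium, 6 for VCaP stripping on plastic, 2 for MDAPCa2a stripping, 4 for VCaP stripping on ACP, 2 and 1 for the LNCaP and MDAPCa2a surface in stripped serum and 1 for the LNCaP surface by serum test. DESeq2 gave 2, 6, 5 and 4 for the first 4 of these and 2 for the MDAPCa2a surface. The fit of all lines gave 0 for the LNCaP surface in either medium, 7 and 1 for stripping on plastic in VCaP and MDAPCa2a, 4 for VCaP stripping on ACP and 4 for LNCaP androgen. Day 4 groups only gave 3 and 2 for stripping on ACP in LNCaP and VCaP and 0 for the LNCaP surface in stripped serum. RLE size factors gave 1 for VCaP stripping on plastic. The replicate block gave 0 there and 6 for RWPE androgen medium, and no other count moved by over 1.5 times with it. Same-numbered libraries correlated by -0.431 to 0.422 in the tumour lines and 0.101 to 0.133 in RWPE, and no number is tied to a culture by the labels. The androgen comparison in RWPE shares only 2 numbers, so the main values have no block. Leaving out 1 library gave 0 to 0 for the LNCaP surface in control medium and 0 to 1 in stripped serum, 3 to 6 and 2 to 4 for LNCaP stripping on plastic and ACP, 1 to 1 and 0 to 1 for VCaP, 3 to 6, 4 to 7 and 0 to 6 for androgen in LNCaP, VCaP and RWPE, 4 to 8 for VCaP against RWPE, 3 to 5 for MDAPCa2a against LNCaP on plastic and on ACP, 2 to 5 and 3 to 6 for the androgen differences of VCaP from LNCaP and MDAPCa2a, and 0 to 1 for surface by serum. Levels scaled by raw totals differed by at most 1.17-fold. With 2 libraries in most groups, small changes could not be detected.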
